A study of Homo sapiens with 8 samples.

Results

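The Toll-like receptors TLR1 to TLR9 and MYD88, the adaptor through which most of them signal, were taken from the deposited expression table by gene symbol, as a family. They are 10 of the 60664 genes in the table, and all 10 were found. The values come from bulk RNA-seq of THP-1, an established human monocytic leukemia cell line, in 4 groups of 2 biological replicates each, 8 libraries in all. Parental THP-1 cells received DMSO, the vehicle (parental DMSO), or 1 µM decitabine (parental DAC), a cytosine analog that lowers DNA methylation, and DAC-resistant THP-1 cells received the same (resistant DMSO and resistant DAC). All 4 groups carried the genotype label WT and were harvested after 6 days. The resistant cells had been derived from the parental ones by repeated rounds of high-dose drug and recovery in drug-free medium. They are 1 derived line, so the difference between resistant and parental cells has no replication over independent derivations. How far the biological replicates were separate cultures is not stated beyond that label, and p-values measure the spread between these libraries.

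Toll-like receptors are membrane proteins that recognise conserved microbial molecules and the cell's own nucleic acids. TLR1, TLR2, TLR4, TLR5 and TLR6 act mainly at the cell surface, where TLR2 pairs with TLR1 or TLR6 to bind lipopeptides, TLR4 binds lipopolysaccharide and TLR5 binds flagellin. TLR3, TLR7, TLR8 and TLR9 act in endosomes and bind double-stranded RNA (TLR3), single-stranded RNA (TLR7 and TLR8) and DNA (TLR9). MYD88 joins the receptors to IRAK kinases, except TLR3, which uses TICAM1, and the pathway ends in NF-κB, AP-1 and interferon regulatory factors. Monocytes are known for surface TLR2 and TLR4 and for endosomal TLR8.

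Library totals, recovered from the steps between low FPKM values, ran from 27480500 to 31916800 reads. Of the 10 marker genes of the monocyte lineage, 9 stood at 1 FPKM or more in both parental DMSO libraries. The count was 10 in parental DAC, 8 in resistant DMSO and 7 in resistant DAC. Of 3 genes of the KMT2A-rearranged program, HOXA9 was at 32.0 to 49.8 and HOXA10 at 16.8 to 29.4 FPKM in all 8 libraries. MEIS1 was at 0.0904 to 0.236 FPKM in parental and at most 0.00608 FPKM in resistant libraries. Replicates of a group differed by more than counting error, the chi-square per gene being 4.01 to 4.26, so no library was a copy of another. Of the 12 B and plasma cell markers, IGKC set 3 libraries apart, at 27.6 FPKM in resistant DMSO replicate 2 and 48.3 and 28.5 FPKM in the resistant DAC libraries, and stood at 0.603 to 1.32 FPKM in the other 5. Without resistant DMSO replicate 2, the members called in the comparison of resistant with parental cells still numbered 3.

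The promoters of the members the results turn on are shown first, to place their sequence beside the levels. RefSeq (GRCh38.p14) promoter windows of 300 bases, 250 before and 50 after the start that the RefSeq table uses, were matched for 8 of the 10 members, all but TLR1 and TLR7. That start lies inside the GENCODE span of the gene, given with each member's values, by 245 bases for TLR3, 228 for TLR4, 210 for TLR2 and 109 for MYD88, and at its edge for the other 4. Capitals mark a match, on either strand, to the interferon-stimulated response element (GAAA, any NN, then GAAA) in TLR3 and MYD88, and to the letters GAGGAAG, a core sequence of the myeloid factor PU.1, in TLR4. The windows of TLR3 (chr4:186068906-186069205), TLR4 (chr9:117704153-117704452), TLR8 (chrX:12906370-12906669) and MYD88 (chr3:38138411-38138710) are all read on the plus strand.
TLR3: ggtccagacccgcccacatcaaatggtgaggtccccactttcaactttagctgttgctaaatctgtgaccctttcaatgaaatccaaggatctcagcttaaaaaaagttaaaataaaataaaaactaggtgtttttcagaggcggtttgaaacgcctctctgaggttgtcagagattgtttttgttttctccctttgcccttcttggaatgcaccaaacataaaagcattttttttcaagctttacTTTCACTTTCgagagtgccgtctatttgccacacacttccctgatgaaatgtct
TLR4: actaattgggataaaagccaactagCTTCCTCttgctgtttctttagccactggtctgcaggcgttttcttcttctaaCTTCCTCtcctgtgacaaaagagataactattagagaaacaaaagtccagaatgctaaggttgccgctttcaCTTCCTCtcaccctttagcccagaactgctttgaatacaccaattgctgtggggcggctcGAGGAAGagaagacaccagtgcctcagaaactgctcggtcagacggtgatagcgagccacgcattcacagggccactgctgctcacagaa
TLR8: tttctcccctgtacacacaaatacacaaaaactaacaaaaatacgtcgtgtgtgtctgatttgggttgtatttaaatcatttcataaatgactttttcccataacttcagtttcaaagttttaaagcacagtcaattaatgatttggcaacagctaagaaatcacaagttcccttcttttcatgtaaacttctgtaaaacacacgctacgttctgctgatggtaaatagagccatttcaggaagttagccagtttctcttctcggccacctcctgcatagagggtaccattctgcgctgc
MYD88: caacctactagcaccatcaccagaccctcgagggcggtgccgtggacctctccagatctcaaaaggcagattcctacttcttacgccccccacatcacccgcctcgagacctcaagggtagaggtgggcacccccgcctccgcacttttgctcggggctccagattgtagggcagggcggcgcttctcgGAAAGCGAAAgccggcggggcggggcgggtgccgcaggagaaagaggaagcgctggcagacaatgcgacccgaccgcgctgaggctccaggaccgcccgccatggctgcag
The response element was found in 2 of the 8 windows, those of TLR3, beginning 4 bases before the RefSeq start, and MYD88, beginning 61 bases before it, and in 3.57% of the 34796 distinct promoters in the table. The PU.1 letters were found in 4 of the 8 windows, with 4 matches in TLR4, 2 in TLR9 and 1 each in TLR6 and MYD88 (not in capitals there), and in 13.6% of all promoters. CG dinucleotides, the positions at which DNA methylation is placed, numbered 33 in the window of TLR2, 27 in TLR5 and 25 in MYD88, and 8 in TLR4, 6 in TLR8, 5 in TLR3, 5 in TLR6 and 2 in TLR9. The median over all promoters was 14, with quartiles of 4 and 28. TLR8 and MYD88 lay on different sides of that median. These matches describe letters, not binding or methylation in these cells.

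DAC in parental cells raised TLR8 and MYD88, and neither passed in resistant cells, where TLR8 was too low for a rise of the parental fold to pass. In resistant cells without drug, TLR1, TLR4 and TLR8 were lowered. TLR2, the most abundant receptor, had a lower level in parental DAC than in parental DMSO, which was not called. Values are FPKM, fragments scaled by exon length and library size. A gene was called in limma on log2(FPKM + 1) where the unadjusted p was 0.01 or less and the log2 fold change reached 1 in either direction. Such log2 values understate the change of genes at low FPKM, so the ratio of mean FPKM is given as well, and adjusted p is by Benjamini-Hochberg over all genes of the fit. With 2 libraries against 2, an exact permutation test of a single gene cannot go below p = 0.333 (two-sided).

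Among the surface receptors, TLR2 (chr4:153684070-153706260, plus strand) had the highest level in every library. It was at 25.5 and 24.8 FPKM in parental DMSO, 16.7 and 17.2 in parental DAC, 15.4 and 15.2 in resistant DMSO, and 15.0 and 15.2 in resistant DAC, from 2645 to 4661 reads. Parental DMSO stood above the other 3 groups without overlap, which lay between 15.0 and 17.2 FPKM. The log2 fold change was -0.54 (SE 0.03, limma adjusted p = 1.9e-05) for DAC in parental cells and -0.68 (SE 0.03, adjusted p = 7.9e-06) for resistant against parental cells in DMSO. Both values were under the fold needed for a call, although they were far larger than the spread between replicates. The 2 comparisons share the parental DMSO libraries.

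TLR4 (chr9:117704175-117724735, plus strand), the lipopolysaccharide receptor, was at 2.61 and 2.40 FPKM in parental DMSO and at 4.62 and 4.56 in parental DAC. It was at 0.341 and 0.474 FPKM in resistant DMSO and at 0.253 and 0.381 in resistant DAC, where 107 to 189 reads were counted per library. The resistant groups overlapped each other and lay below both parental groups. Resistant cells had 6.14-fold less TLR4 than parental cells in DMSO (log2 -1.32, SE 0.09, adjusted p = 4.6e-05), which was called. DAC in parental cells gave 1.84-fold more, with a log2 fold change of 0.68 (SE 0.09, adjusted p = 0.00095), which was not called. TLR4 shares 678 exon bases, 5.11% of its exon length, with another gene on the same strand that had no more than 0.0140 FPKM in any library.

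TLR1 (chr4:38790677-38856817, minus strand), a partner of TLR2, was also highest in parental DAC. Its level was 1.44 and 1.63 FPKM in parental DMSO, 3.02 and 2.49 in parental DAC, 0.237 and 0.271 in resistant DMSO, and 0.304 and 0.309 in resistant DAC. The 4 groups did not overlap, and resistant cells had 34 to 44 reads per library against 207 to 377 in parental cells. TLR1 was 6.03-fold lower in resistant than in parental cells in DMSO (log2 -1.01, SE 0.10, adjusted p = 0.00024), a call that was lost without parental DMSO replicate 2 (log2 -0.96) or without resistant DMSO replicate 1 (log2 -0.99). For DAC in parental cells the log2 fold change was 0.57 (SE 0.10, adjusted p = 0.0036), not called.

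TLR6 (chr4:38822897-38856817, minus strand), the other partner of TLR2, moved little. It was at 2.94 and 2.78 FPKM in parental DMSO, 2.98 and 2.82 in parental DAC, 1.82 and 2.00 in resistant DMSO, and 2.16 and 1.98 in resistant DAC. The parental groups overlapped each other, as did the resistant groups, and every resistant library was below every parental one. The log2 fold change of resistant against parental cells in DMSO was -0.41 (SE 0.07, adjusted p = 0.0031), not called, and that of DAC in parental cells was 0.02 (SE 0.07, adjusted p = 0.87), with a sign that turned under other scalings. TLR1 and TLR6 share 57 exon bases.

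TLR5 (chr1:223109404-223143248, minus strand), the flagellin receptor, was under the filter of 1 FPKM in every library. It had 75 and 56 reads in parental DMSO, 102 and 91 in parental DAC, 20 and 4 in resistant DMSO, and 2 and 7 in resistant DAC. Its FPKM was 0.306 and 0.239, 0.480 and 0.428, 0.0819 and 0.0172, and 0.0081 and 0.0296 in the same order, so the resistant groups overlapped each other only. The log2 fold change of resistant against parental cells in DMSO was -0.28 (SE 0.06, adjusted p = 0.024), not called, beside a ratio of mean FPKM of 5.49 in favour of parental cells. That ratio was 15.8 without resistant DMSO replicate 1 and 3.32 without replicate 2.

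Among the endosomal receptors, TLR8 (chrX:12906620-12923169, plus strand), which senses single-stranded RNA, had the widest range. It was at 1.14 and 1.17 FPKM in parental DMSO, 4.86 and 5.27 in parental DAC, 0.0509 and 0.0611 in resistant DMSO, and 0.0432 and 0.0900 in resistant DAC. These values rested on 158 and 154, 582 and 631, 7 and 8, and 6 and 12 reads. Parental DAC was the highest group, parental DMSO the next, and the resistant groups overlapped near the bottom. DAC raised TLR8 4.39-fold in parental cells (log2 1.49, SE 0.09, adjusted p = 2.1e-05). In DMSO, TLR8 was 20.6-fold lower in resistant than in parental cells (log2 -1.03, SE 0.09, adjusted p = 0.00011).

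TLR8-AS1, an antisense transcript whose gene lies over that of TLR8 without sharing exon bases with it, had 3 and 10 reads in parental DMSO and 61 and 83 in parental DAC. It had 0 reads in all 4 resistant libraries. Whether reads were counted by strand is not given in the sources used here, so reads of the 2 genes within their shared span may not be fully separated.

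TLR7 (chrX:12867072-12890361, plus strand), the neighbour of TLR8 and also a sensor of single-stranded RNA, kept its level in resistant cells closer to that in parental cells. It was at 1.42 and 1.10 FPKM in parental DMSO, 2.36 and 2.74 in parental DAC, 1.13 and 1.11 in resistant DMSO, and 0.813 and 0.891 in resistant DAC. Parental DAC was above all other libraries, and the 2 DMSO groups overlapped. DAC in parental cells gave 2.02-fold more by mean FPKM, with a log2 fold change of 0.65 (SE 0.10, adjusted p = 0.0018), not called. The log2 fold change of resistant against parental cells in DMSO was -0.09 (SE 0.10, adjusted p = 0.50).

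TLR3 (chr4:186068911-186088073, plus strand), the double-stranded RNA receptor, was low throughout. It had 8 and 21 reads in parental DMSO (0.0375 and 0.103 FPKM) and 54 and 53 in parental DAC (0.292 and 0.287 FPKM). In resistant cells the only read among the 4 libraries was 1 in resistant DAC replicate 2. The ratio of mean FPKM for DAC in parental cells was 4.12 (7.72 without parental DMSO replicate 2 and 2.81 without replicate 1), with a log2 fold change of 0.27 (SE 0.03, adjusted p = 0.0034), not called, while with 0.1 FPKM added in place of 1 it was called (log2 1.22). Against a floor of 3 reads in each resistant DMSO library, TLR3 was at least 4.85-fold higher in parental DMSO, and at least 2.59-fold higher when parental DMSO replicate 2 was left out or 7.11-fold higher without replicate 1. At such counts a level in resistant cells was not detectable, which does not show that it was absent.

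TLR9 (chr3:52221080-52225645, minus strand), the DNA receptor, had 4 to 14 reads per library. It was at 0.132 and 0.0984 FPKM in parental DMSO and between 0.0390 and 0.0851 FPKM in the other 6 libraries. Parental DMSO did not overlap them, but the lowest adjusted p of any TLR9 comparison was 0.21. Its exons share 3341 bases, 99.7% of their length, with another annotated gene on the same strand, so reads could be counted for either or for neither, and its level is uncertain.

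MYD88 (chr3:38138552-38143024, plus strand) was at 8.05 and 7.96 FPKM in parental DMSO, 27.2 and 27.8 in parental DAC, 7.79 and 8.66 in resistant DMSO, and 7.01 and 7.22 in resistant DAC. Parental DAC stood alone above the other 6 libraries, which lay between 7.01 and 8.66 FPKM. DAC raised MYD88 3.44-fold in parental cells (log2 1.66, SE 0.05, adjusted p = 1.3e-06). Without drug its level in resistant cells overlapped that in parental cells (log2 0.03, SE 0.05, adjusted p = 0.62), unlike TLR1, TLR4 and TLR8.

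TLR10, the remaining human gene of the family and not among the members, was under the filter, with 15 and 10 reads in parental DMSO, 37 and 22 in parental DAC and 0 to 4 in the resistant libraries. Its log2 fold change for DAC in parental cells was 0.19 (SE 0.05, adjusted p = 0.054), not called.

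The first comparison asked how parental cells, which respond to the drug, changed under DAC. It raised 2 of the 10 members, TLR8 and MYD88, and lowered none, beside 6.66% of all genes tested that were raised and 2.64% that were lowered. Of the members not called, TLR1, TLR3, TLR4, TLR5 and TLR7 had higher means and TLR2 and TLR9 lower ones. TLR6 had nearly the same mean, 2.90 FPKM in parental DAC and 2.86 in parental DMSO, with overlap. With voom on the recovered reads, which adds no 1 FPKM, TLR3 (log2 2.18) and TLR7 (log2 1.02) were raised too, making 4. TLR3, TLR5 and TLR9 were under 1 FPKM in every library, so only 7 members entered the fit of filtered genes.

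**Figure D1:**
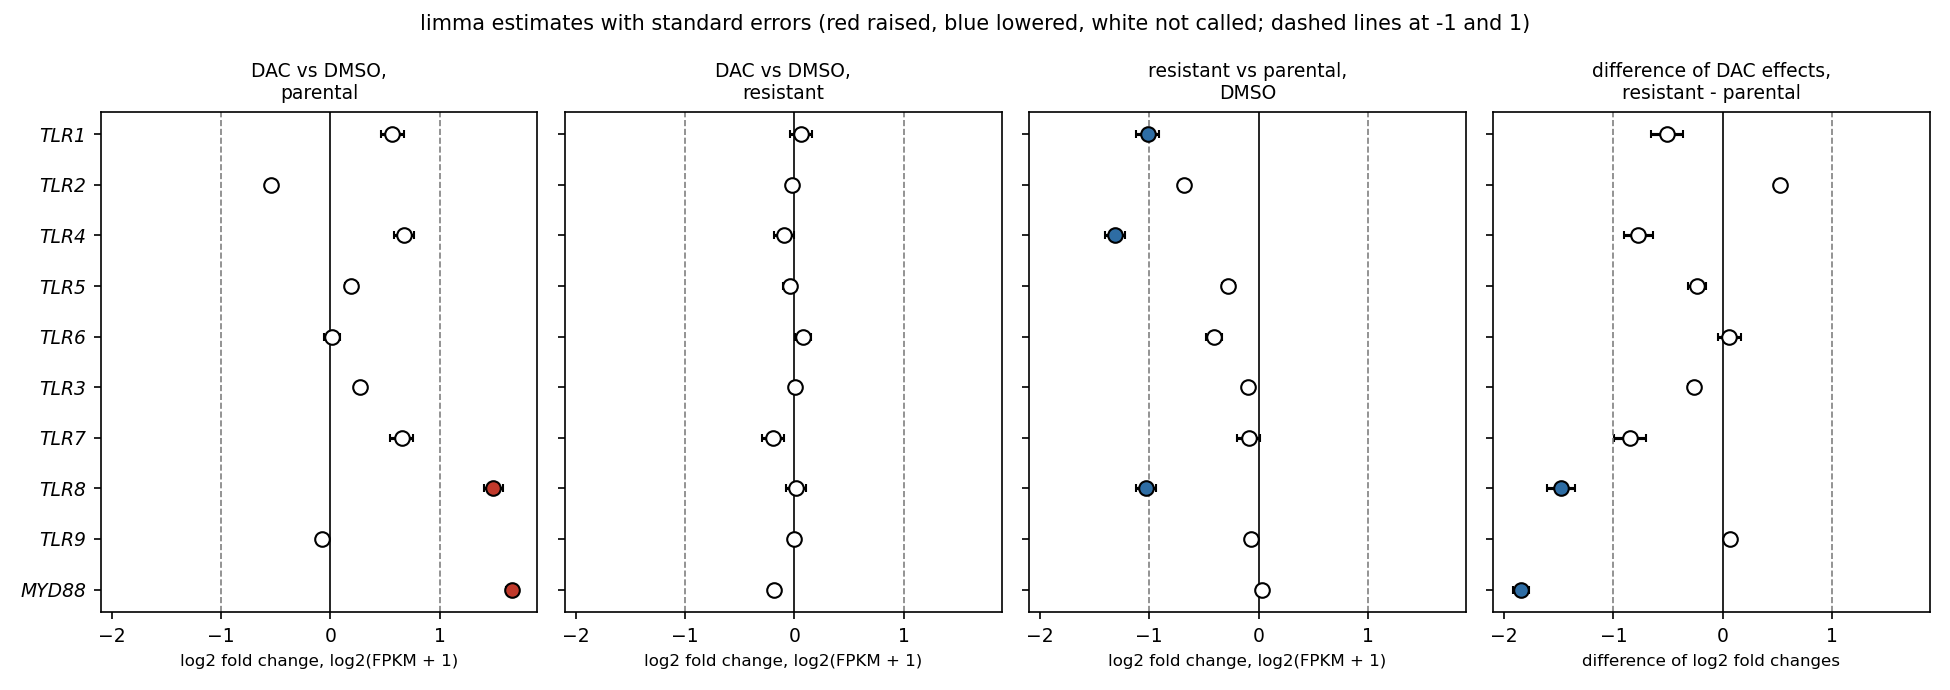
Estimated log2 fold changes on the log2(FPKM + 1) scale (horizontal axis, bars are standard errors) of the 10 members in the 4 comparisons, with dashed lines at -1 and 1. Filled points are called, TLR8 and MYD88 for DAC in parental cells, TLR1, TLR4 and TLR8 for resistant against parental cells, and TLR8 and MYD88 for the difference of the DAC effects.

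The same treatment of resistant cells was compared next, to see whether the response remained. None of the 10 members was called by limma, beside 0.114% of all genes raised and 0.121% lowered. At an unadjusted p under 0.05, 1 member remained, MYD88, with a log2 fold change of -0.18 (SE 0.05, adjusted p = 0.072), and voom on the recovered reads called 0 as well. The other log2 fold changes lay between -0.20 (TLR7) and 0.08 (TLR6). TLR8 was at 0.0560 FPKM in resistant DMSO, where a rise of the parental fold would not reach a log2 change of 1 on this scale. That TLR8 was not called in this fit thus does not show that its response was lost.

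Whether the DAC effect itself differed between the lines was tested as an interaction, resistant minus parental. The interaction was called, and negative, for MYD88 (-1.85, SE 0.07, adjusted p = 6.4e-06) and TLR8 (-1.48, SE 0.13, adjusted p = 0.00016), 2 of 10 members, beside 7.16% of all genes tested in this direction and 3.46% in the other. TLR8 was at 0.0560 FPKM in resistant DMSO, where the added 1 FPKM shrinks any fold. An equal fold in both lines would therefore also give a large negative difference for TLR8. Its call does not test whether the fold differed. TLR7 (-0.85, adjusted p = 0.0034) and TLR4 (-0.77, adjusted p = 0.0033) had differences under the fold needed, and TLR2 had one of the opposite sign (0.52, adjusted p = 0.00017). With voom on recovered reads, where TLR8 had few reads in resistant cells, its difference was -1.98 (unadjusted p = 0.019, adjusted p = 0.039) and was not called. By the same voom fit TLR4 (-1.25) and TLR7 (-1.41) were called. A pseudocount of 0.1 also called TLR4 (-1.14) and TLR7 (-1.33), and rescaling to TPM called TLR7 (-1.14).

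Resistant and parental cells were compared in DMSO to describe the level before any new drug. Resistance came with 3 of 10 members lowered, TLR1, TLR4 and TLR8, and none raised, beside 4.28% of all genes lowered and 4.45% raised. These 3 reached the filter through the parental libraries alone, where they are higher. TLR2 and TLR6 were lower by smaller amounts, while TLR7 and MYD88 overlapped between the lines. With voom on the recovered reads, TLR3 (log2 -4.74) and TLR5 (log2 -2.74) were lowered as well, making 5. TLR3 had 0 reads in both resistant DMSO libraries, so its voom value is no measured fold. The floor of 3 reads gives at least 4.85-fold, or 2.59-fold without parental DMSO replicate 2. TLR5 rested on 20 and 4 reads in resistant DMSO. Quantile normalization left 1 call, that of TLR4, with TLR1 and TLR8 at -0.93 each. In bulk RNA, fewer cells that express a receptor and less RNA of it per cell cannot be told apart.

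The make-up of the receptor pool followed from these levels. The summed FPKM of TLR1 to TLR9 was 35.5 and 34.3 in parental DMSO and 35.4 and 35.8 in parental DAC, with overlap, and 18.6 to 19.2 in the 4 resistant libraries. TLR2 made up 71.8% and 72.2% of the sum in parental DMSO, 47.3% and 47.9% in parental DAC, and 79.3% to 80.4% in resistant cells. The endosomal receptors summed to 2.73 and 2.47 FPKM in parental DMSO, 7.57 and 8.37 in parental DAC, 1.26 and 1.21 in resistant DMSO, and 0.931 and 1.03 in resistant DAC. The surface receptors other than TLR2 summed to 7.29 and 7.04, 11.1 and 10.3, 2.48 and 2.76, and 2.73 and 2.70 FPKM in the same order. The total was thus alike in both parental groups while less of it was TLR2 under DAC, and no test was made of these sums.

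**Figure D2:**
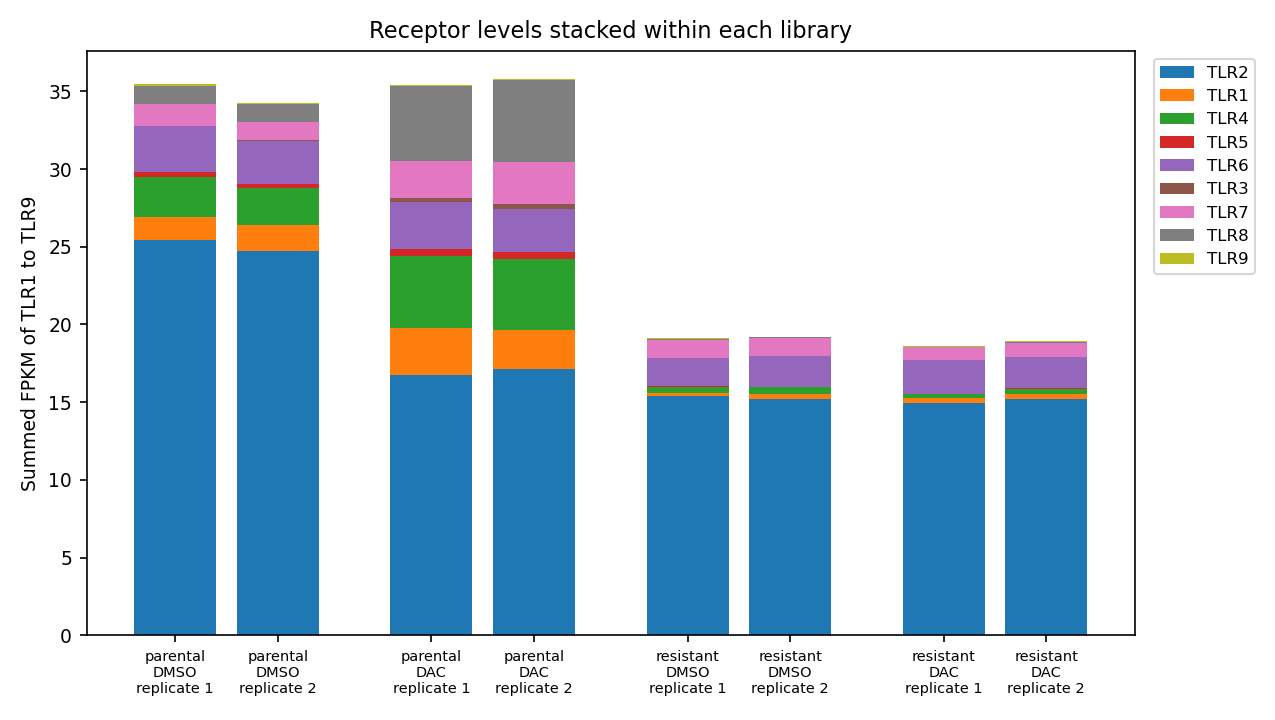
FPKM of the 9 receptors stacked within each of the 8 libraries (linear axis from 0). The sum is 34.3 to 35.8 FPKM in parental libraries and 18.6 to 19.2 in resistant ones, and the TLR2 part is smaller in parental DAC than in parental DMSO.

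The proteins that receptors need to reach their ligands and the cell membrane were read from a list of 11 co-receptors and chaperones, of which 10 passed the filter. DAC in parental cells raised 4 of the 11 and lowered none, beside 6.66% and 2.64% of all genes tested. CD14, which hands lipopolysaccharide to TLR4, was at 1.45 and 1.58 FPKM in parental DMSO and at 19.0 and 20.8 in parental DAC (log2 3.05, SE 0.13, adjusted p = 5.4e-06). LY96 (MD-2), the subunit that binds lipopolysaccharide beside TLR4, was at 0.903 and 0.708 FPKM and at 13.1 and 12.4 FPKM (log2 2.93, SE 0.15). UNC93B1, which carries the endosomal receptors out of the endoplasmic reticulum, was at 13.2 and 13.5 and at 38.3 and 36.7 FPKM (log2 1.42, SE 0.06), and CD36, a co-receptor of TLR2, had a log2 fold change of 1.58 (SE 0.06). In each of these 4 genes both DAC libraries were far above both DMSO libraries. Resistant DMSO against parental DMSO called none of the 10 in limma, beside 4.45% of all genes raised and 4.28% lowered. At an unadjusted p under 0.05 alone, 8 of the 10 passed, as did 51 of the 63 filtered genes of all 5 pathway lists. No share of all genes is given at that threshold, so the 8 is no result about this list. TLR4 was lowered in resistant cells while CD14, at 0.750 and 0.989 FPKM, and LY96, at 1.36 and 1.84 FPKM, were not called.

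Of the adaptors and kinases, 17 of 19 genes passed the filter. DAC in parental cells raised 1, IKBKE, a kinase of interferon regulatory factors (log2 1.17, SE 0.06), a share near the 6.66% of all genes tested. In resistant cells in DMSO, TIRAP, the adaptor that brings MYD88 to TLR2 and TLR4, was lowered, from 3.23 and 3.19 FPKM to 0.468 and 0.565 (log2 -1.47, SE 0.10, adjusted p = 3.2e-05). TIRAP reached the filter through the parental libraries alone, where it is higher. PELI1, a ubiquitin ligase of the pathway, was raised (log2 1.15, SE 0.14). With 1 of 19 genes raised and 1 lowered, these shares are near the 4.45% and 4.28% of all genes, and are no result about the list.

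Of the 12 transcription factors, DAC in parental cells raised 3, beside 6.66% of all genes. IRF7, which drives type I interferon genes, went from 3.74 and 3.43 to 50.4 and 52.6 FPKM (log2 3.52, SE 0.06), and the AP-1 genes FOS (log2 1.75) and JUN (log2 1.74) were raised as well. Resistant DMSO against parental DMSO also raised these 3, IRF7 by 1.04, FOS by 1.54 and JUN by 1.66 on the log2 scale, and lowered the NF-κB genes RELB (log2 -1.45) and NFKB1 (log2 -1.33), beside 4.45% of all genes raised and 4.28% lowered. Both comparisons use the parental DMSO libraries.

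Of the 11 negative regulators, DAC in parental cells raised 2, the phosphatase DUSP1 (from a mean of 1.15 to 8.24 FPKM, n = 2) and NFKBIA (log2 1.00, SE 0.05), the inhibitor of NF-κB that is also one of its targets, beside 6.66% of all genes. NFKBIA lay at the threshold, and 1 gene of this list was called without parental DMSO replicate 1 or with upper-quartile scaling. In resistant cells in DMSO NFKBIA was lowered (log2 -1.02, SE 0.05), a call that was lost without resistant DMSO replicate 2 or after rescaling to TPM, beside 4.28% of all genes lowered.

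Of the 16 target genes of the pathway, DAC in parental cells raised 9 and lowered none, beside 6.66% and 2.64% of all genes. The filter was passed by 13 of the 16, IL1B and CCL4 through parental DAC alone, where they are highest, so their place among the 13 is not independent of the change. The chemokine CCL2 went from 3.48 and 3.60 to 90.7 and 89.6 FPKM (log2 4.33, SE 0.10), CXCL8 had a log2 fold change of 4.23 and CXCL10 of 4.22, and the cytokine IL1B went from 0.377 and 0.427 to 10.5 and 11.3 FPKM (log2 3.08, SE 0.10). Many of these are also induced by other routes, such as the interferon response for CXCL10. Resistant cells in DMSO had 5 of the 16 raised and 1 lowered, beside 4.45% and 4.28% of all genes. CXCL10 was at 36.1 and 30.8 FPKM there (log2 4.14, SE 0.09) and TNF at 35.3 and 35.0 FPKM, against 8.18 and 7.94 in parental DMSO (log2 2.00, SE 0.04). IFNB1, the interferon-β gene, was at 1.74 and 2.02 FPKM, against 0 and 0.0393 in parental DMSO, and passed the filter through the resistant libraries alone. CXCL8 and CCL5 were the others raised, and CCL2 was lowered, to 0.447 and 0.268 FPKM (log2 -1.75, SE 0.10), a gene that passed the filter through the parental libraries alone.

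**Figure D3:**
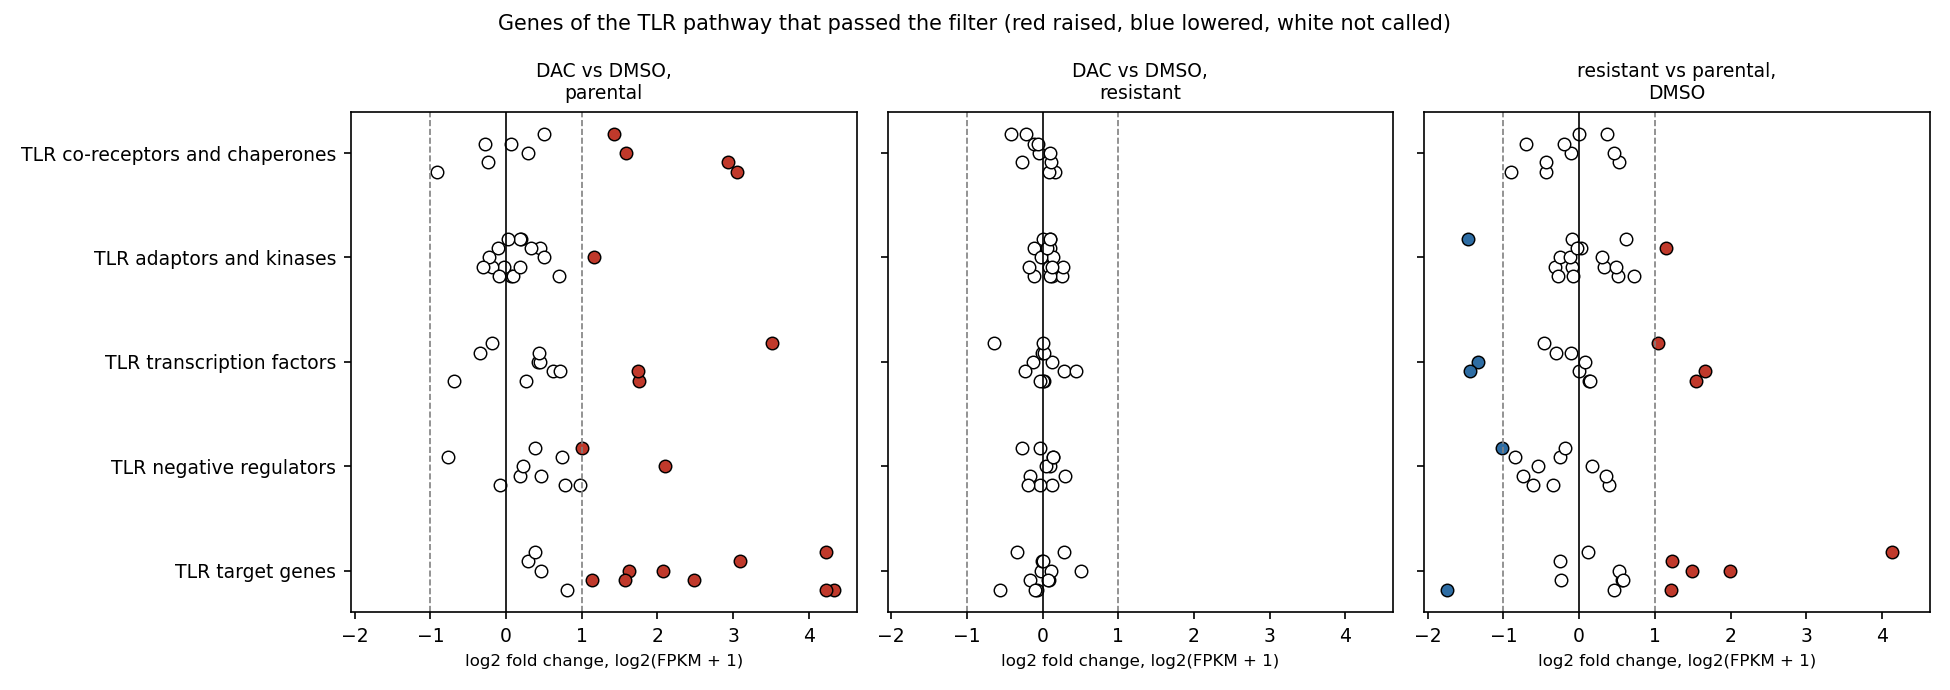
Log2 fold changes on the log2(FPKM + 1) scale (horizontal axis) of the pathway genes that passed the filter, by list, in 3 comparisons, with called genes filled. DAC raised 9 of the 13 target genes shown in parental cells, IL1B and CCL4 among them, beside 6.66% of all genes tested. Under DAC no gene of any list is called in resistant cells. With 0.114% of all genes raised and 0.121% lowered there, this is near the background and no result about the lists.

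The median log2 fold change for DAC in parental cells over every gene of a list, whether or not it passed the filter, was 1.35 for the 16 target genes, 0.47 for the 11 negative regulators, 0.44 for the 12 transcription factors, 0.28 for the 11 co-receptors and chaperones, and 0.08 for the 19 adaptors and kinases. It was 0.06 over all genes that passed the filter and 0.02 over all genes without it. In resistant cells under DAC limma called none of the 63 genes of the 5 lists that passed the filter, with 22 at an unadjusted p under 0.05, and voom also called 0. With 0.114% of all genes raised and 0.121% lowered there, the lack of calls is near the background and is no result about these lists. For counts at an unadjusted p under 0.05, no share of all genes is given here, so such counts, the 22 among them, are read against no background. The interaction was called, and negative, for 9 target genes, 4 co-receptors and chaperones and 3 transcription factors. It was called in this direction also for 2 negative regulators and 1 of the adaptors and kinases, beside 7.16% of all genes. A negative value is a smaller DAC effect in resistant cells, not a lower level. TNF, among the 9, was at 51.1 and 49.9 FPKM in resistant DAC and 35.3 and 35.0 in resistant DMSO. Its log2 fold change there was 0.51 (SE 0.04, limma adjusted p = 0.0012), not called. For the others of the 9, the lowest adjusted p there was 0.052 (CXCL8, log2 -0.56). The 9 target genes include IL1B and CCL4, and the share of adaptors and kinases was near that of all genes. IL1B and CCL2 had means of 0.178 and 0.357 FPKM in resistant DMSO, against 0.402 and 3.54 in parental DMSO. The added 1 FPKM shrinks a fold more at the lower level, so their differences do not measure the fold alone. The count of negative regulators was 1 without resistant DMSO replicate 1 or without resistant DAC replicate 1, and 4 with voom or with a pseudocount of 0.1.

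Markers of the monocyte lineage moved beside these results. Their summed level was 261 to 266 FPKM in parental DMSO, 382 to 391 in parental DAC, 194 to 208 in resistant DMSO, and 205 to 211 in resistant DAC, and none of the 10 was at 0 in a group. DAC in parental cells raised 3 of the 10, CD14, LYZ and MPO, and in resistant cells in DMSO 3 were lowered, CD33, LYZ and ITGAM, beside 6.66% of all genes raised and 4.28% lowered in these comparisons. The 12 B and plasma cell markers summed to 9.31 and 9.53 FPKM in parental DMSO, 15.3 and 16.7 in parental DAC, 12.6 and 40.5 in resistant DMSO, and 41.4 and 61.2 in resistant DAC, and none was at 0 in a group. MS4A1, which defines B cells, was at most 0.488 FPKM in any library. Of the 4 plasmacytoid dendritic cell markers, GZMB was at 0 in both parental groups and CLEC4C in 3 of the 4 groups, and LILRA4 was at most 0.183 FPKM. TCF4 was at 0.979 and 0.848 FPKM in parental DMSO, 2.05 and 2.17 in parental DAC and 0.927 to 1.07 in the resistant libraries, with a log2 fold change for DAC in parental cells of 0.70 (SE 0.08, adjusted p = 0.00048), not called. The list summed to 0.954 to 1.09 FPKM in parental DMSO, 2.25 to 2.35 in parental DAC, 1.05 to 1.06 in resistant DMSO, and 1.02 to 1.20 in resistant DAC. The 6 T and NK cell markers summed to 17.4 FPKM in both parental DMSO libraries, 10.5 and 11.0 in parental DAC, 30.7 and 32.0 in resistant DMSO, and 34.5 and 34.6 in resistant DAC, nearly all of it NCAM1, the 1 gene of this list that passed the filter. Of the genes that define T cells, CD3D and CD2 were above 0 in parental DAC alone, at no more than 0.426 FPKM, and CD3E was at 0.150 and 0.123 FPKM in parental DAC, 0.0477 and 0.0751 in resistant DMSO and 0 in the other 4 libraries. The part of these cell markers in the receptor changes was not tested.

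The genes whose pattern over the 8 libraries was most like that of a member were found by Pearson correlation of log2(FPKM + 1) over the filtered genes, with the other members left out. The 8 libraries are 4 groups of replicates that share treatment. High values were common, and 1620 genes exceeded 0.9 with MYD88 and 1791 with TLR8. PARP14 (0.999), FAM9C (0.999) and SAMD9 (0.998) were nearest to MYD88, and ADAM28 (1.00), LRRC25 (0.999) and SIGLEC6 (0.999) to TLR8. SLA (0.999), MALT1 (0.999) and RLF (0.998) were nearest to TLR4, and CCDC194 (0.998), IL4R (0.997) and GALNT10 (0.997) to TLR1. MS4A6A (0.997), C5 (0.996) and CSF3R (0.995) were nearest to TLR2, with 516 genes over 0.9. PSTPIP1 (0.994), PI4KB (0.992) and GRK3 (0.992) were nearest to TLR6, and TOR1AIP1 (0.995), EXTL3 (0.995) and PLXNB2 (0.992) to TLR7. Among the members themselves TLR1 and TLR4 were closest (0.991), followed by TLR8 with TLR1 (0.967) and with TLR4 (0.963), TLR7 with MYD88 (0.961) and TLR7 with TLR8 (0.947), and TLR2 was unlike MYD88 (-0.09).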

How the data were processed

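RNA-seq libraries (KAPA mRNA HyperPrep) of parental and DAC-resistant THP-1 cells were analysed, 2 per group. Per the submitters' processing notes and the study's methods, the authors trimmed reads with cutadapt 1.9.1, aligned them with HISAT2 2.1.0 to hg38, and counted them with HTSeq 0.13.5. Whether counting used strand, and the annotation release, are not given in the sources used here. The authors deposited FPKM values multiplied by 1000, which were divided by 1000. With GENCODE v44 exon lengths, 86.7% of gene values above 0 gave whole reads (tolerance 0.01), which served for depth and for voom. For TLR3, TLR6 and MYD88 the length was instead the one that makes all 8 values whole (6725, 6035 and 3989 bases), so their reads, and the TLR3 floor, rest on it.

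Values were fitted as log2(FPKM + 1) with limma 3.58.1 (R 4.3.3), in 4 group means over all 8 libraries, with variances moderated along a trend (2.50 prior and 4 residual degrees of freedom). Genes had to reach 1 FPKM in 2 libraries (14899 genes). TLR3, TLR5, TLR9 and TLR10 fell short and were taken from the fit without the filter (39592 genes). Calls took the thresholds of the study's volcano plots, p up to 0.01 (unadjusted) with a log2 fold change of 1 or more either way. Adjusted p is by Benjamini-Hochberg. The fit was tested on simulated data. The rule for named pathway genes took those called, up to the 4 largest per list. Any named beyond it (further called target genes and transcription factors, and genes not called, such as CD14 and LY96 in resistant DMSO) were chosen after their values were seen. The members and lists were chosen with earlier results of these data known. Alternatives changed the pseudocount, filter, scaling, block, libraries, threshold or tool. Protein sequences were not used here.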

Additional observations from a re-analysis of the deposited data

Results flagged for a closer look

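The difference of the DAC effects between resistant and parental cells, on the log2(FPKM + 1) scale, was called for 2 members. For TLR8 the difference of the log2 fold changes was -1.48 (limma adjusted p = 0.00016), with TLR8 higher under DAC in 2 of 2 parental replicates and the resistant groups overlapping. With voom on recovered reads it was -1.98 (unadjusted p = 0.019, adjusted p = 0.039) and was not called, the unadjusted p being above 0.01. TLR8 was at 0.0560 FPKM in resistant DMSO, where an equal fold in both lines would also give a large negative difference on the log2(FPKM + 1) scale. Whether its fold differed is therefore not shown. For MYD88 it was -1.85 (adjusted p = 6.4e-06), with 27.2 and 27.8 FPKM in parental DAC against 7.01 and 7.22 in resistant DAC. Both rest on 2 libraries per group.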

How the results depend on the processing

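Alternatives were run 1 at a time. The count of members called for DAC in parental cells was 2, and it was 1 with a minimum mean of 5 FPKM, where only 2 members were left to test, and 4 with voom. For resistant against parental cells in DMSO it was 3, and 0 with the 5 FPKM mean, 1 with quantile normalization and 5 with voom. For the difference of the DAC effects it was 2, and 4 with a pseudocount of 0.1 and 1 with the 5 FPKM mean. Voom changed which members were called for that difference, TLR8 (-1.98) being lost and TLR4 (-1.25) and TLR7 (-1.41) gained. When 1 library was left out these counts were 2 to 2, 2 to 3 and 2 to 2, and 0 to 0 for DAC in resistant cells.

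Signs turned for members near 0. TLR6 for DAC in parental cells was -0.0043 after rescaling to TPM, -0.071 with upper-quartile scaling and -0.087 with quantile normalization, and ranged from -0.0149 to 0.047 with 1 library left out. TLR2 for DAC in resistant cells was 0.0083 after rescaling to TPM. MYD88 for resistant against parental cells was -0.054 with upper-quartile scaling and -0.029 with quantile normalization, and from -0.0346 to 0.101 with 1 library left out, as TLR7 was from -0.19 to 0.0113. For DAC in resistant cells, leaving out 1 library gave -0.0868 to 0.0022 for TLR5, -0.0177 to 0.0457 for TLR8 and -0.0382 to 0.0234 for TLR9. Quantile normalization moved the median of all genes for DAC in parental cells from 0.057 to -0.053. The cause of these changes was not tested.

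Over all genes the calls numbered 1387 for DAC in parental cells, 35 in resistant cells, 1300 for resistant against parental cells and 1583 for the difference. A pseudocount of 0.1 gave 2097, 107 and 2263 of the first 3, voom 2206, 60 and 2369, and the 5 FPKM mean 573, 6, 517 and 721. Rescaling to TPM gave 89 in resistant cells and 2036 for resistant against parental cells, and leaving out resistant DAC replicate 1 gave 53 in resistant cells. With the replicate number as a block, the members called were 2, 0, 3 and 2, as without it. Same-numbered replicates did not deviate together (correlations of -0.022 to 0.020). That shows no shared shift of expression by replicate number, and cannot show whether same-numbered samples were handled together. With 4 to 14 reads per library, TLR9 could not be compared at this depth, and 2 libraries per group limit every estimate.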

Other observations

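Other monocyte genes in the same libraries, outside the comparisons of the receptors, showed these levels. CSF1R, the receptor for macrophage colony-stimulating factor, was at 13.8 and 14.6 FPKM in parental DMSO, 26.3 and 27.4 in parental DAC, 6.83 and 6.72 in resistant DMSO, and 5.95 and 6.36 in resistant DAC, so every resistant library lay below every parental one. SPI1, which encodes PU.1, was at 102 and 102 FPKM in parental DMSO, 129 and 125 in parental DAC, and 67.4 to 76.1 in the 4 resistant libraries. CEBPA, another myeloid factor, was between 78.4 and 99.0 FPKM in all 8 libraries, and its DMSO values in resistant cells (92.9 and 84.1) stood above those in parental cells (78.4 and 82.9).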
